A study of Mus musculus with 4 samples.

Results

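A set of 9 genes that mark tissue-resident macrophages and the monocytes that feed them was followed in the distal colon of mice given dextran sulfate sodium (DSS), a sulfated sugar polymer that damages the gut lining and brings on colitis. They were chosen by name, with earlier results of these data known: Adgre1, Cd68, Mrc1, Cd163, C1qa, C1qb, C1qc, Cx3cr1 and Ly6c2. All 9 were found among the 22422 genes of the deposited table, and all 9 passed the filter on low values. The animals were female C57BL/6 mice, 6 weeks old, that received 2% DSS for 5 days, and the distal colon was taken on the last of these days. The comparison is between 2 libraries labelled wild type and 2 labelled Elf4fl/fl-Villin-Cre. In the latter, Cre made under the villin promoter removes loxP-flanked Elf4, an ETS family transcription factor gene, from intestinal epithelium. The villin promoter is active in epithelium and not in macrophages. For the mice with the deletion, the label of strain gives C57BL/8, unlike the design text. All mice had DSS, and colon without DSS was not analysed here. The labels do not say whether replicates were separate animals, whether the mice were littermates or which alleles the wild-type mice carried, so the spread behind each p-value is that among these samples and could be technical only.

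Macrophages of the intestinal lamina propria take up bacteria and dying cells beneath the epithelium. Most are renewed from blood monocytes that carry the Ly6C antigen and the chemokine receptor CCR2, and that lose Ly6C and gain CX3CR1, MHC class II and scavenger receptors as they mature in the gut wall. In colitis many monocytes enter at once and part of this maturation is delayed, so monocyte and macrophage markers need not move together. In bulk tissue RNA, more cells of a type and more RNA per cell cannot be told apart.

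The 4 libraries held 15885028 to 16425954 reads counted on genes, so depth was alike in both groups. Values are normalised reads, that is, a gene's read count multiplied by a scaling factor that the authors set for each library, without gene length. Elf4 stood at 1588 and 1938 in wild type, against 897 and 758 in the Elf4fl/fl-Villin-Cre pair, and its log2 fold change was -1.09 ± 0.16 (SE; limma adjusted p = 0.0139). The tissue label held for epithelium: all 8 epithelial markers were read in each library, and all 8 were lower in Elf4fl/fl-Villin-Cre colon, with a median log2 fold change of -1.31. The part of this epithelial fall in the Elf4 value was not tested. Fold changes below set Elf4fl/fl-Villin-Cre against wild type, are on the scale log2(value + 1), and are positive where the former was higher.

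Of the 9 markers, 7 rose in Elf4fl/fl-Villin-Cre colon and 0 fell (limma, Benjamini-Hochberg adjusted p under 0.05 over all 22050 genes tested). Of all genes tested, 6.86% were called higher and 8.6% lower. Because the markers were chosen with earlier results of these data known, this contrast is no independent evidence of a direction. The 7 were the macrophage surface and lysosomal markers Adgre1 and Cd68, the endocytic receptors Mrc1 and Cd163, and the complement genes C1qa, C1qb and C1qc. Cx3cr1 and Ly6c2 did not pass the test. The median log2 fold change over the 9 was 0.74, against 0.11 over all genes tested. The groups did not overlap for 8 of the 9 markers, all higher, as in 35% of all genes tested (27.2% had groups that did not overlap and were lower). edgeR on the recovered reads called the same 7 genes higher, beside 9.88% higher and 13.5% lower among the 17337 genes it tested. In each fit lacking 1 library, edgeR called fewer genes of the whole table higher than with all 4 libraries. The marker counts of those fits stand beside that drop. With 1 library left out, edgeR called 7 of the 9 without Elf4fl/fl-Villin-Cre replicate 2, 3 without wild type replicate 1, and 2 when either wild type replicate 2 or Elf4fl/fl-Villin-Cre replicate 1 was missing. Limma called 0 genes of the whole table in each of these 4 fits (6 or 7 of the 9 markers were higher at an unadjusted p under 0.05).

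**Figure D1:**
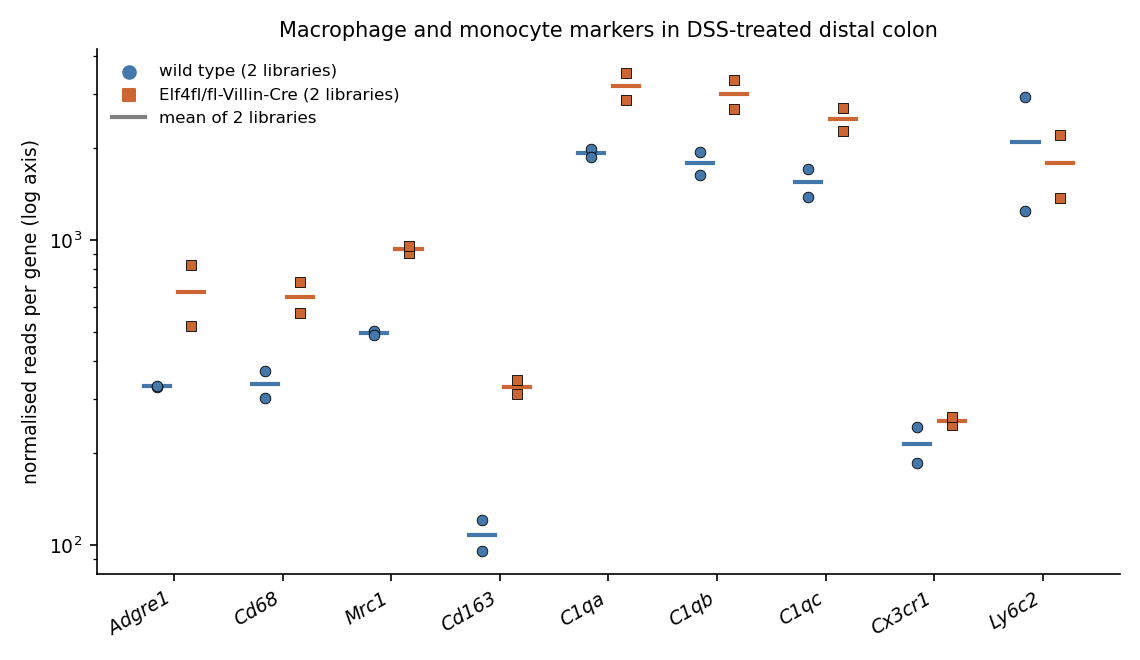
Normalised reads of each marker (log axis) in the 2 wild-type libraries (blue circles) and the 2 Elf4fl/fl-Villin-Cre libraries (orange squares), with the mean of each pair as a bar. The orange points lie above the blue for every marker but Ly6c2, and those of Cx3cr1 lie close to them (248 and 263 against 185 and 243).

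Adgre1 encodes F4/80, an adhesion G protein-coupled receptor that defines mouse macrophages and is also made by eosinophils. The gene (ENSMUSG00000004730.14, chromosome 17, 57358691 to 57483527, build mm10) had 328 and 333 normalised reads in the wild-type pair, against 824 and 523 in the Elf4fl/fl-Villin-Cre pair. The wild-type pair was nearly equal, and the Elf4fl/fl-Villin-Cre pair lay apart by 1.57-fold. The log2 fold change was 0.99 ± 0.23 (SE; limma adjusted p = 0.0382). Leaving out Elf4fl/fl-Villin-Cre replicate 1 gave 0.66, and leaving out replicate 2 of that group gave 1.32. In edgeR the Adgre1 call was lost in 3 of the 4 fits without 1 library, namely without wild type replicate 1 (adjusted p = 0.102), wild type replicate 2 (0.116) or Elf4fl/fl-Villin-Cre replicate 1 (0.0968). Cd68 encodes macrosialin, a glycoprotein of lysosomes in phagocytes. This gene (ENSMUSG00000018774.13, chromosome 11, 69664213 to 69666153) stood at 372 and 302 against 727 and 574 normalised reads. Both Elf4fl/fl-Villin-Cre libraries lay above both wild-type ones, with replicates 1.23-fold and 1.27-fold apart within the groups. Its log2 fold change was 0.94 ± 0.19 (SE; limma adjusted p = 0.0251). In edgeR the Cd68 call was lost when wild type replicate 2 (adjusted p = 0.0925) or Elf4fl/fl-Villin-Cre replicate 1 (0.0644) was left out.

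Mrc1 encodes the mannose receptor CD206, which binds and internalises sugar-bearing proteins and is also made by lymphatic endothelium. The gene (ENSMUSG00000026712.3, chromosome 2, 14229392 to 14332057) had 503 and 487 normalised reads in the wild-type pair, against 905 and 955 in the Elf4fl/fl-Villin-Cre pair. In both groups the replicates were within each other's 95% counting interval, so Mrc1 had little spread beside its difference. Its log2 fold change was 0.91 ± 0.13 (SE; limma adjusted p = 0.0127). Cd163 encodes the scavenger receptor for complexes of haemoglobin and haptoglobin. This gene (ENSMUSG00000008845.9, chromosome 6, 124304656 to 124330527) stood at 120 and 95.9 against 346 and 313 normalised reads, which came from 117 and 91 reads against 425 and 374. Its mean ± SD (n = 2 a group) was 108 ± 17.3 for wild type against 329 ± 23.6, or 3.05 times as much. In log2 units Cd163 rose by 1.61 ± 0.19 (SE; limma adjusted p = 0.00986), the largest change of the 9 markers under the authors' scaling and under the 3 other scalings tried. Mrc1 and Cd163 were the 2 markers that edgeR called in each of its 4 fits without 1 library (highest adjusted p = 0.0453 and 0.0364).

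C1qa, C1qb and C1qc encode the A, B and C chains that assemble into C1q, the part of complement component C1 that binds antibody and dying cells. In the gut C1q is made mostly by macrophages. The genes are neighbours on the minus strand of chromosome 4, within 18675 bases. C1qa (ENSMUSG00000036887.5, 136895917 to 136898803) had 1988 and 1862 normalised reads in the wild-type pair, against 3515 and 2871 in the Elf4fl/fl-Villin-Cre pair. C1qb (ENSMUSG00000036905.8, 136880129 to 136886187) stood at 1946 and 1631 against 3326 and 2676. C1qc (ENSMUSG00000036896.5, 136889804 to 136893065) stood at 1710 and 1376 against 2696 and 2273. All 3 were highest in Elf4fl/fl-Villin-Cre replicate 1 and lowest in wild type replicate 2, and the groups did not overlap. The log2 fold changes were 0.72 ± 0.15, 0.74 ± 0.17 and 0.69 ± 0.17 (SE; limma adjusted p = 0.0286, 0.0354 and 0.0426). The replicates of C1qb and C1qc lay further apart than counting error in both groups. Within a library the chains kept to a narrow ratio, with 0.876 to 0.979 reads of C1qb and 0.739 to 0.86 reads of C1qc per read of C1qa. edgeR called each of the 3 without Elf4fl/fl-Villin-Cre replicate 2 and in none of the other 3 fits without 1 library (highest adjusted p = 0.13, 0.14 and 0.161).

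Promoter sequence was read for 7 of the 9 markers from the RefSeq table (GRCm38.p6), which held no entry for Adgre1 or C1qa. The 250 bases before the RefSeq start site of C1qb, C1qc and Mrc1 are shown because, of the 5 called markers with an entry, these 3 held AGGAAG. RefSeq start sites can differ from the ends of the gene positions given in this report. The C1qc and Mrc1 windows lay partly inside the gene as given, and the Cx3cr1 window wholly inside it. Capitals mark AGGAAG and GAGGAA on either strand, overlapping letters of the core bound by ETS factors such as PU.1, the factor on which macrophages depend.
C1qb chr4:136886201-136886450 (- strand): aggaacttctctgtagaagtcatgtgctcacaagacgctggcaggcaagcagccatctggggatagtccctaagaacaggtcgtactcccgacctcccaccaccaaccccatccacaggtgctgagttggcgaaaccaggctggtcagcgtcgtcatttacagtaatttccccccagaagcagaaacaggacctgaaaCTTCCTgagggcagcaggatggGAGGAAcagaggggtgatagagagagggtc
C1qc chr4:136892915-136893164 (- strand): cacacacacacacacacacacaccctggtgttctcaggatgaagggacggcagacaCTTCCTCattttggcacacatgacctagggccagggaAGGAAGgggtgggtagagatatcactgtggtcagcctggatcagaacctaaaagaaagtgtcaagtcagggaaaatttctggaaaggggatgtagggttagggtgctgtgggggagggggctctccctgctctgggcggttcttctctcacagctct
Mrc1 chr2:14229164-14229413 (+ strand): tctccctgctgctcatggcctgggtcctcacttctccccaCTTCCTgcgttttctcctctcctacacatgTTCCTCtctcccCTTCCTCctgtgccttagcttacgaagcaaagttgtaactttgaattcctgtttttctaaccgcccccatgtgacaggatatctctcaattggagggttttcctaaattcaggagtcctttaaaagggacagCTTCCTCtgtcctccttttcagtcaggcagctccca
One or both words were found in 5 of the 7 markers (C1qb, C1qc, Mrc1, Cd68 and Ly6c2) and in 39.2% of all 32851 promoter windows of the same length. AGGAAG alone was in 29.5% and GAGGAA alone in 23.2% of windows, counting windows with both in each. The Cd163 and Cx3cr1 windows held neither word. TGAGTCA, the AP-1 word, searched on both strands, was in the Cd68 window and in 4.46% of all windows. These matches describe the letters in the windows and are no measure of binding.

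Cx3cr1 encodes the receptor for the membrane-bound chemokine fractalkine and is carried by mature gut macrophages, some dendritic cells and monocytes. The gene (ENSMUSG00000052336.7, chromosome 9, 119901616 to 120069879) had 185 and 243 normalised reads in the wild-type pair, against 248 and 263 in the Elf4fl/fl-Villin-Cre pair. The pairs did not overlap, but wild type replicate 2 and Elf4fl/fl-Villin-Cre replicate 1 were within each other's counting interval. The log2 fold change was 0.26 ± 0.19 (SE; limma adjusted p = 0.396), with a 95% interval of -0.21 to 0.73. Fractalkine itself, from Cx3cl1, is made by epithelium and endothelium. Cx3cl1 fell from 1936 and 2199 to 889 and 986 normalised reads, a log2 fold change of -1.14 ± 0.14 (SE; limma adjusted p = 0.00986), and edgeR called it in each of its 4 fits without 1 library. Epithelial markers fell alongside it (median -1.31), and their part in the Cx3cl1 value was not tested.

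Ly6c2 encodes the Ly6C antigen of inflammatory monocytes, which plasma cells and some T cells also carry. The gene (ENSMUSG00000022584.14, chromosome 15, 75108158 to 75111970) had 2927 and 1247 normalised reads in the wild-type pair, against 1373 and 2207 in the Elf4fl/fl-Villin-Cre pair. The groups overlapped, and the wild-type replicates alone differed by 2.35-fold on 2845 and 1183 reads, well outside counting error. The log2 fold change was -0.13 ± 0.42 (SE; limma adjusted p = 0.857), with a 95% interval of -1.16 to 0.90. Its sign turned with the library left out, from -0.75 without wild type replicate 2 to 0.48 without wild type replicate 1. Ly6c1, a gene 59327 bases away with a near-identical coding sequence that is made by endothelium, stood at 11373 and 10176 against 10035 and 8090 (limma adjusted p = 0.377). The coding sequences of Ly6c2 and Ly6c1 in GENCODE release 21 have 396 bases each and differ at 9 of them. Their first 150 bases are shown with the 6 differing bases in capitals. Within this coding stretch, only those positions can tell reads of these genes apart.
Ly6c2: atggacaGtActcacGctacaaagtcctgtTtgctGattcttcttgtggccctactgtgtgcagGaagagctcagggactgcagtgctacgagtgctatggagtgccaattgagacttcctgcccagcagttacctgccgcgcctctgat
Ly6c1: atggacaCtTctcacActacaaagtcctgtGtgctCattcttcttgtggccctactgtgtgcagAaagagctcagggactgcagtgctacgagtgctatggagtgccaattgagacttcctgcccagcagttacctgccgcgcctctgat
The longest run without a difference is 188 bases. Of all stretches of 100 bases in the main Ly6c2 transcript, 15.8% are also in a Ly6c1 transcript, and of stretches of 50 bases 32.6% are. How the authors' counting treated reads that fit both genes is not given in the sources used here, so the split between them is uncertain. The ratio of Ly6c2 to Ly6c1 reads was 0.257 and 0.122 in wild type, against 0.137 and 0.273 in the Elf4fl/fl-Villin-Cre pair, which is as wide within the groups as between them. Ly6g, another gene of the same cluster, singled out after its values were seen, stood at 12663 and 13520 against 9105 and 10787 (limma adjusted p = 0.168).

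The size of each change depended on how the libraries were scaled. One read was worth 1.03 and 1.05 normalised reads in wild type, against 0.814 and 0.836 in the Elf4fl/fl-Villin-Cre pair, although the totals were nearly equal. With library totals in place of the authors' scaling, the median of all genes moved from 0.11 to 0.40 and the same 7 markers were called, with log2 fold changes from 1.01 (C1qc) to 1.92 (Cd163). With medians set equal, 3 markers, Cd163, Mrc1 and Cd68, were called at 1.43, 0.74 and 0.77 (limma adjusted p = 0.0071, 0.0157 and 0.031), while Adgre1, C1qa, C1qb and C1qc had adjusted p = 0.0581, 0.0591, 0.0605 and 0.0732. With quantile scaling 6 markers were called, and Adgre1 was not (limma adjusted p = 0.0739). Relative to the median of all genes, the median of the 9 markers was 0.64 higher under the authors' scaling, 0.66 under library totals, 0.64 under median scaling and 0.95 under quantile scaling. Beside these marker counts, limma called 1512 of the 22050 genes tested higher under the authors' scaling. It called 4069 higher under library totals, 1116 under median scaling and 1230 under quantile scaling. Of all called genes, 44.4% were higher under the authors' scaling, 77.5% under library totals and 28.7% under median scaling.

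**Figure D2:**
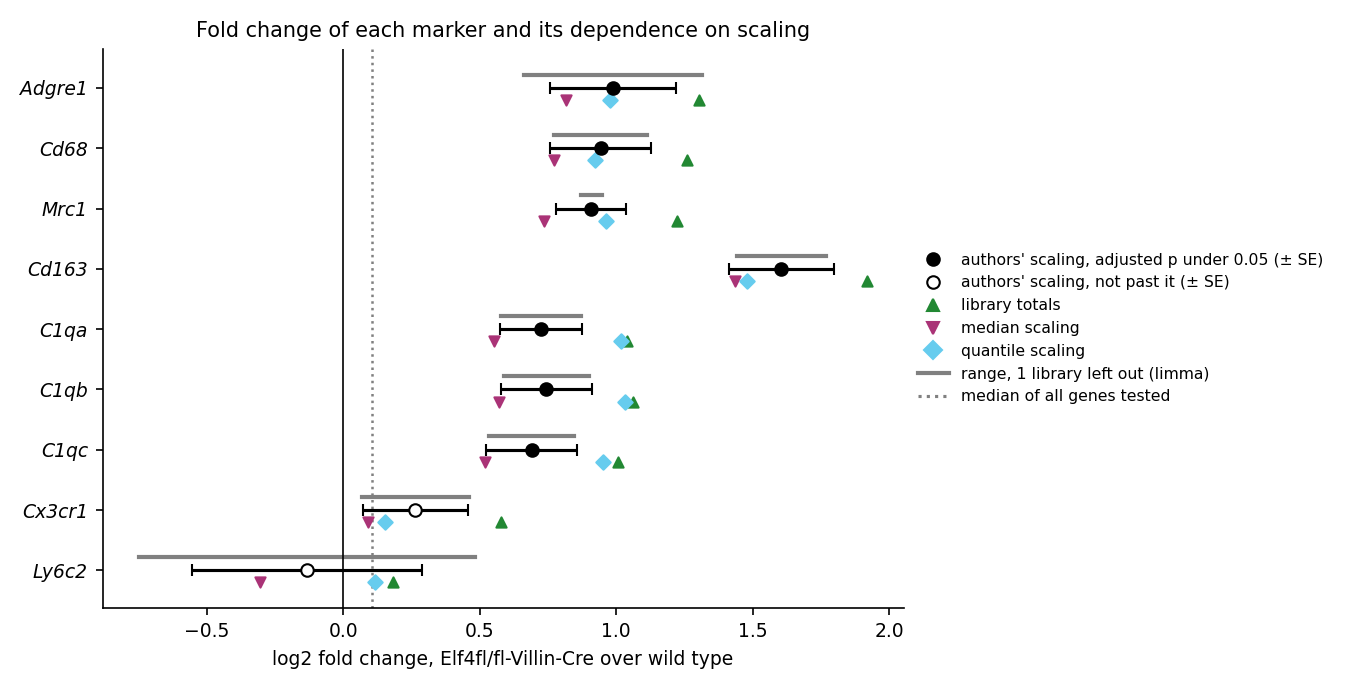
Log2 fold change of each marker, with black points and bars for the value ± SE under the authors' scaling (filled where the adjusted p is under 0.05), coloured symbols for 3 other scalings, grey bars for the range of limma values with 1 library left out, and a dotted line at the median of all genes tested (0.11). Every marker but Ly6c2 keeps a positive value under each scaling shown and each library left out, and Ly6c2 lies on both sides of 0.

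Ratios within a library do not depend on its scaling. Csf1r, the receptor through which macrophages receive their survival signal, was taken as the denominator. Csf1r itself stood at 1202 and 925 against 2179 and 1652 normalised reads, a log2 fold change of 0.85 ± 0.20 (SE; limma adjusted p = 0.0391), a call lost in edgeR (adjusted p up to 0.14) when wild type replicate 2 or Elf4fl/fl-Villin-Cre replicate 1 was left out. The groups overlapped in the ratio to Csf1r for 5 markers, Adgre1, Mrc1, C1qa, C1qb and Cx3cr1. Adgre1 had 0.273 and 0.36 reads per read of Csf1r in wild type, against 0.378 and 0.317 in the Elf4fl/fl-Villin-Cre pair. C1qa had 1.65 and 2.01 against 1.61 and 1.74. For neither gene did this ratio separate the groups. Cd68 had 0.31 and 0.327 against 0.334 and 0.347, with the nearest values of the groups closer together than the replicates of either. Cd163 stood apart with 0.1 and 0.104 reads per read of Csf1r in wild type, against 0.159 and 0.189 in the Elf4fl/fl-Villin-Cre pair, a 1.71-fold higher ratio. Cd163 was also higher per read of Cd68, with 0.323 and 0.317 against 0.476 and 0.545, and per read of Mrc1, with 0.239 and 0.197 against 0.382 and 0.327. The ratio of Cx3cr1 to Adgre1 went the other way, at 0.564 and 0.731 against 0.3 and 0.502. C1qc and Ly6c2 had ratios to Csf1r that were lower in both Elf4fl/fl-Villin-Cre libraries, by little for C1qc (1.42 and 1.49 against 1.24 and 1.38) and for Ly6c2 with groups that nearly met (2.44 and 1.35 against 0.63 and 1.34). With 2 libraries a group an exact permutation test cannot give a two-sided p under 0.333, so these ratios are a description with no test.

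**Figure D3:**
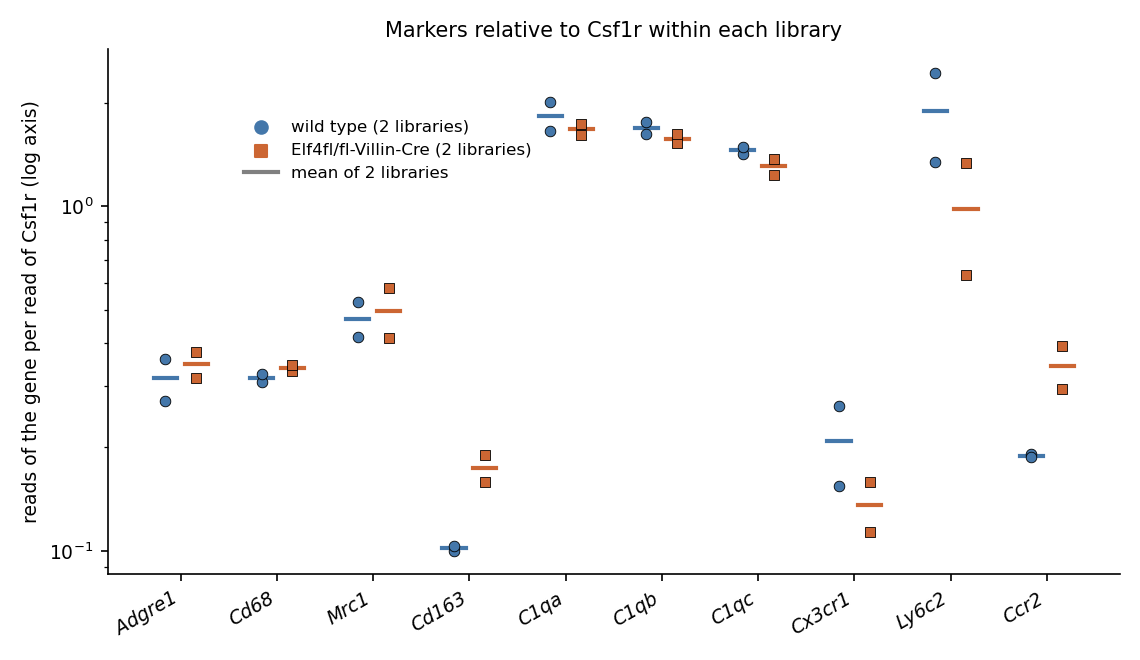
Reads of each marker and of the monocyte receptor gene Ccr2 per read of Csf1r in the same library (log axis, not corrected for gene length), with blue circles for wild type, orange squares for Elf4fl/fl-Villin-Cre and bars for the mean of each pair. Cd163 (0.1 and 0.104 against 0.159 and 0.189) and Ccr2 (0.191 and 0.187 against 0.393 and 0.294) are higher in both orange points, while Adgre1, Mrc1, C1qa and C1qb overlap.

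Levels of different genes were compared as normalised reads per kilobase of all annotated exons. In wild type the mean levels ran from C1qa (1851) and C1qb (1644) through C1qc (799), Ly6c2 (762), Cd68 (268), Adgre1 (102), Mrc1 (77.7) and Cx3cr1 (47.6) to Cd163 (19.8). In Elf4fl/fl-Villin-Cre colon the order was C1qa (3070), C1qb (2758), C1qc (1287), Ly6c2 (653), Cd68 (517), Adgre1 (208), Mrc1 (146), Cd163 (60.3) and Cx3cr1 (56.6). C1qa and C1qb lay close in wild type (1911 and 1790 against 1788 and 1499) and overlapped in Elf4fl/fl-Villin-Cre libraries (3380 and 2761 against 3057 and 2460). C1qc and Ly6c2 overlapped in wild type, and Ly6c2 and Cd68 in Elf4fl/fl-Villin-Cre libraries. Cd163 lay below Cx3cr1 in each wild-type library, at 22.0 and 17.6 against 41.1 and 54.0. In Elf4fl/fl-Villin-Cre colon the levels of these 2 genes overlapped, at 63.4 and 57.3 for Cd163 and 55.0 and 58.3 for Cx3cr1. That overlap depended on the length used. Over the longest coding transcript, Cd163 lay above Cx3cr1 in both Elf4fl/fl-Villin-Cre libraries, at 77.9 and 70.4 against 55.1 and 58.4. In wild type Cd163 lay below Cx3cr1 by either length, at 27.1 and 21.6 against 41.2 and 54.2 over that transcript. For C1qc and Ly6c2 the exons of all transcripts together are longer than the longest coding transcript (1931 against 1203 and 2740 against 822 bases). The same held for Cd163 (5461 against 4443 bases) and Mrc1 (6371 against 5374 bases). Over the longest coding transcript C1qc and Ly6c2 stood at 1283 and 2539 per kilobase in wild type, which put the mean of Ly6c2 first of the 9. That place rests on wild type replicate 1, where Ly6c2 had 3561 against 1911 for C1qa, since in wild type replicate 2 it had 1517 against 1790. In Elf4fl/fl-Villin-Cre libraries its mean over this transcript was 2178, below C1qa (3070) and C1qb (2758), and its range overlapped that of C1qb.

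Genes around the markers were described from lists chosen with earlier results of these data known, so their counts are no independent evidence of a direction. Among 10 genes of myeloid growth factors, chemokines and their receptors, 5 rose and 1, Cx3cl1, fell. The monocyte chemokine Ccl2 stood at 245 and 133 against 1778 and 1732 normalised reads, a log2 fold change of 3.28 ± 0.28 (SE; limma adjusted p = 0.00742). Its receptor Ccr2, which brings monocytes out of bone marrow, stood at 229 and 173 against 856 and 487 (1.69 ± 0.30; limma adjusted p = 0.019; edgeR adjusted p = 0.0772 without wild type replicate 2). Ccr2 was thus higher in both Elf4fl/fl-Villin-Cre libraries, whereas the other monocyte marker, Ly6c2, overlapped between groups. Csf2, the growth factor GM-CSF, rested on few reads, at 4.12 and 2.11 against 17.9 and 31.8 normalised reads (limma adjusted p = 0.0292), and edgeR called it in 1 of its 4 fits without 1 library. The receptor chain gene Csf2rb rose by 1.37 and was not called by edgeR when wild type replicate 2 was left out (adjusted p = 0.062). The ligands of Csf1r did not pass: Csf1 stood at 629 and 548 against 884 and 766 (limma adjusted p = 0.0799) and Il34 at 366 and 352 against 346 and 361 (limma adjusted p = 0.932). Under library totals limma called Csf1 higher (adjusted p = 0.0214). Ccl7, another monocyte chemokine gene, had an adjusted p of 0.0516 in limma, and was called by edgeR (0.0414), by DESeq2 (0.0191) and by limma under library totals (0.0173) and quantile scaling (0.0434). Csf2ra had a limma adjusted p of 0.168.

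Beside the C1q chains, 12 other complement genes were listed, of which 6 rose and 1 fell, with a median log2 fold change of 1.01. C1s1, a protease that C1q sets to work, stood at 2527 and 1959 against 4974 and 4441 normalised reads (log2 fold change 1.08 ± 0.17; limma adjusted p = 0.0154), and its partner C1ra at 1286 and 781 against 1870 and 1689 (limma adjusted p = 0.0716, DESeq2 adjusted p = 0.0295). The next components of the classical pathway, C4b and C2, did not pass (limma adjusted p = 0.237 and 0.964), and C3, on which all routes of complement meet, rose by 1.04 ± 0.24 (limma adjusted p = 0.038). The receptors of the fragments C5a and C3a, C5ar1 and C3ar1, rose by 2.34 and 1.01, and the integrin gene Itgam, whose product binds C3 fragments, by 1.83 (limma adjusted p = 0.0089, 0.0254 and 0.0115). Its partner Itgb2 had an adjusted p of 0.0579 in limma and 0.045 in edgeR. Serping1, the C1 inhibitor, did not pass in limma (adjusted p = 0.0523) and was called by DESeq2 (adjusted p = 0.00932). Cfb, of the alternative pathway, fell by 0.92 (limma adjusted p = 0.0158). edgeR called C5ar1, Itgam and Cfb in each of its 4 fits without 1 library, while C1s1 lost its call without wild type replicate 2 (adjusted p = 0.0611), C3 without wild type replicate 2 or Elf4fl/fl-Villin-Cre replicate 2, and C3ar1 in each fit that kept Elf4fl/fl-Villin-Cre replicate 2. The highest adjusted p of these edgeR fits was 0.148 for C3 and 0.0853 for C3ar1.

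Of 9 genes whose products handle haemoglobin, haem or iron beside Cd163, 4 rose and 1 fell. Hp, which encodes haptoglobin, stood at 358 and 127 against 2042 and 1188 normalised reads (log2 fold change 2.86 ± 0.50; limma adjusted p = 0.0188). Hmox1, the enzyme that opens the haem ring, stood at 287 and 302 against 1823 and 1039 (2.22 ± 0.27; limma adjusted p = 0.00973). Slc40a1, which encodes the iron exporter ferroportin, went from 2095 and 3326 to 536 and 832 (-1.98 ± 0.29; limma adjusted p = 0.0136). Lrp1, a receptor for haem bound to haemopexin, rose by 0.88 (limma adjusted p = 0.0248), which edgeR did not call (adjusted p up to 0.112) when wild type replicate 2 or Elf4fl/fl-Villin-Cre replicate 1 was left out. Erythroid genes were higher in the same libraries. Of 6 such genes 4 rose, and their summed level was 246 and 699 in wild type, against 2422 and 2817 in the Elf4fl/fl-Villin-Cre pair. The part of blood in the Cd163, Hp and Hmox1 values was not tested.

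Of 18 other genes of mature macrophages 7 rose and 0 fell, with a median of 0.73. Cd14, a co-receptor for bacterial lipopolysaccharide, rose by 1.37, the scavenger receptor gene Stab1 by 1.09, the hyaluronan receptor gene Lyve1 by 0.82 and the transcription factor gene Maf by 1.17 (limma adjusted p = 0.0089, 0.0142, 0.0215 and 0.0245). Only Cd14 of these 4 was called by edgeR in each of its 4 fits without 1 library. Stab1 lost its call without wild type replicate 2, Maf without wild type replicate 1, and Lyve1 without either of these or Elf4fl/fl-Villin-Cre replicate 1, with adjusted p of up to 0.0599, 0.068 and 0.0784. Among 9 lysosomal genes listed beside Cd68, 3 rose (Lyz2, Ctsl and Lamp2, by 1.52, 0.64 and 0.59) and 0 fell, and Ctsl and Lamp2 were called in 0 of the 4 edgeR fits without 1 library (highest adjusted p = 0.161 and 0.23). Lyz2 lost its call without wild type replicate 1 or 2 (highest adjusted p = 0.118). The median of the lysosomal list was 0.32, and limma did not call 6 of its genes. Of these, Ctsd and Gpnmb had log2 fold changes of 0.32 and 0.50. Those of Lamp1, Ctsb, Ctss and Ctsz were -0.16, -0.05, -0.34 and -0.21. All 6 were named after their values were seen. Of 10 C-type lectin receptor genes, the class of Mrc1, 4 rose and 1 fell. Clec4e and Clec4d, receptors of myeloid cells that sense damage and fungi, rose by 3.61 and 3.36, Clec4n by 1.63 and Pla2r1, of the same family as Mrc1, by 1.14 (limma adjusted p = 0.00636, 0.00737, 0.0144 and 0.0111). The 1 that fell was Ly75, also of the Mrc1 family, by 0.76 (limma adjusted p = 0.018), and Mrc2 of that family did not pass (limma adjusted p = 0.103), both named after their values were seen. edgeR lost Clec4n without wild type replicate 2 (adjusted p = 0.0608). Of 7 adhesion receptor genes related to Adgre1, limma called 0 (4 higher, 0 lower by unadjusted p under 0.05) and edgeR 1. Adgrl1 stood at 833 and 819 against 1183 and 1109 normalised reads and had an adjusted p of 0.0544 in limma and 0.049 in edgeR, and Adgrg6 one of 0.0587 in limma.

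Monocyte genes other than Ly6c2, several of which other cells also make, include Ccr2 and Hp described above. Of 15, 8 rose and 2 fell, with a median of 1.47. Thbs1, which encodes thrombospondin 1, rose by 2.64, the coagulation factor gene F13a1 by 2.06 and the proteoglycan gene Vcan by 1.47 (limma adjusted p = 0.00636, 0.00636 and 0.0136). F13a1 stood at 176 and 162 against 738 and 683 normalised reads, with little spread within the groups. edgeR lost Vcan without wild type replicate 2 (adjusted p = 0.0564). The 2 that fell were Ace and Plac8, named after their values were seen. Their log2 fold changes were -0.73 and -0.97 (limma adjusted p = 0.0255 and 0.0284). edgeR also called both lower (adjusted p = 0.0169 and 0.0217), and limma called neither lower under library totals. Of 7 genes of MHC class II presentation, which mature macrophages and dendritic cells share, limma and edgeR called 0 in either direction, and 0 at an unadjusted p under 0.05. H2-Aa stood at 8968 and 6076 against 11485 and 7635 normalised reads, and H2-DMb1 at 915 and 552 against 673 and 406. All 7 were higher in replicate 1 than in replicate 2 of both groups, so replicates lay apart in the same direction throughout this list. Over all genes tested, replicate 1 was the higher for 51% in wild type and 45.4% in the Elf4fl/fl-Villin-Cre pair. This order was not particular to the list, since all 8 T cell genes listed below also had it in both groups. The median of the list was -0.04 under the authors' scaling and 0.27 under library totals.

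**Figure D4:**
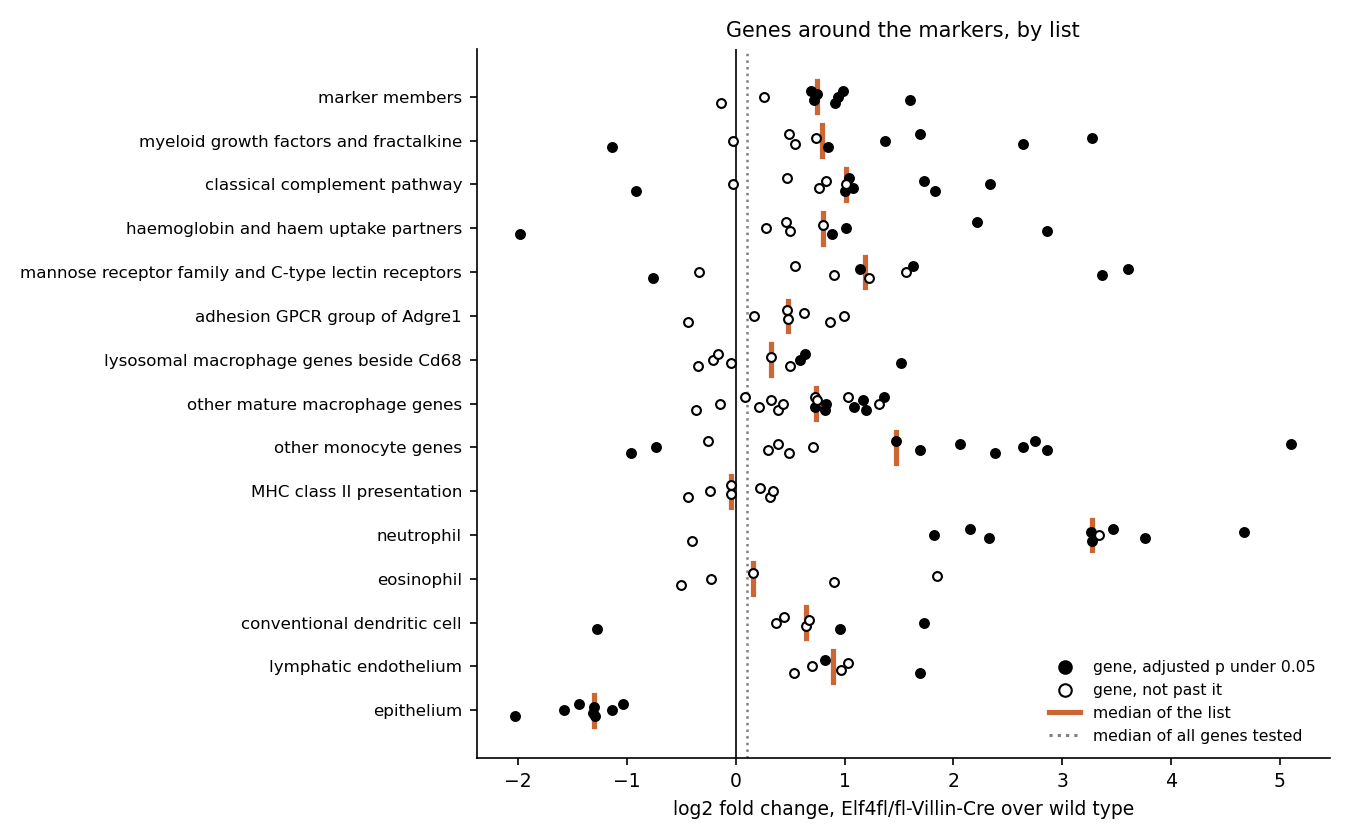
Log2 fold change of each gene in the lists of markers and related genes and in 5 lists of other cell types, filled where the adjusted p is under 0.05, with an orange bar at each list's median and a dotted line at the median of all genes tested (0.11). The marker list has its median at 0.74, MHC class II at -0.04, neutrophil genes at 3.27 and epithelium at -1.31.

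Cell types that share markers with macrophages were measured in the same libraries. Neutrophil genes, which include phagocyte genes close to those of monocytes, rose in 8 of 10 cases, with a median of 3.27. Csf3r, Trem1, Mmp8 and S100a9 rose by 2.15, 2.33, 4.67 and 3.26 (limma adjusted p = 0.00737, 0.00767, 0.0089 and 0.00953). The summed level of the 10 neutrophil genes was 13827 and 14149 in wild type, against 15752 and 18064 in the Elf4fl/fl-Villin-Cre pair, most of it Ly6g. Without Ly6g the sum was 1164 and 629 against 6647 and 7278 (the other 9 genes), and Ngp was at 0 in wild type replicate 2. Eosinophils can carry F4/80. Limma called 0 of the 5 eosinophil genes measured (1 higher, 0 lower by unadjusted p under 0.05) and edgeR 0 of 4 (0 at an unadjusted p under 0.05), their summed level was 738 and 587 against 724 and 763, of which Il5ra made up 84.4% to 89.0%. The other 4 genes summed to 92.6 and 72.7 against 113.2 and 83.6, and Ccr3 was at 0 in wild type replicate 2. Lymphatic endothelium can carry Mrc1 and Lyve1. Of its 6 genes 2 rose, Pdpn by 1.70 and Lyve1, with a summed level of 2155 and 1791 against 4949 and 3520. Of 8 blood endothelial genes, which include Ly6c1, 2 rose, Emcn by 1.49 and Pecam1 by 0.71, and the sum was 14297 and 12400 against 14281 and 11796. Ly6c1 made up 68.6% to 82.1% of that sum, and the other 7 genes summed to 2924 and 2224 against 4246 and 3706. Of 7 dendritic cell genes 2 rose (Zbtb46 and Ccr7) and 1, Itgae, fell, with a sum of 589 and 446 against 867 and 644. T and plasma cells can carry Ly6c2. Of 8 T cell genes limma and edgeR called 0 (0 at an unadjusted p under 0.05), with a sum of 1421 and 845 against 1461 and 1166. Of 6 plasma cell genes 1, Jchain, rose by 1.01, with a sum of 27556 and 22584 against 44363 and 43448. Of these genes, Pdpn kept its edgeR call in each of 4 fits lacking a library. Emcn lost it without wild type replicate 2, Pecam1, Jchain and Ccr7 without that library or Elf4fl/fl-Villin-Cre replicate 1, Itgae without either wild-type library, and Zbtb46 in each fit except that lacking Elf4fl/fl-Villin-Cre replicate 2, with adjusted p of up to 0.0667, 0.12, 0.129, 0.076, 0.0768 and 0.161. Of 6 fibroblast genes 2 rose, of 5 smooth muscle genes 1 fell, and of 7 mast cell genes 1 rose. The epithelial sum fell from 208900 and 258060 to 73976 and 85570. The part of any of these cell types in the marker values was not tested.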

How the data were processed

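Distal colon RNA, isolated with Trizol per the labels, was sequenced for 2 libraries a genotype. The authors deposited a normalised signal per gene, and the submitters' processing notes name mm10 as the build. For the aligner, counter, strand setting and scaling tool, the answer is not given in the sources used here. Each value was a whole multiple of what 1 read was worth in its library (100% of values, tolerance 0.01), so whole reads were recovered, 15885028 to 16425954 a library. Gene symbols, positions and exon lengths came from GENCODE mouse release 21 of the same build (99.8% of identifiers matched).

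Genotype was tested with limma 3.58.1 (R 4.3.3), using log2(value + 1), a trend of variance with level, no further term, and Benjamini-Hochberg adjustment at 0.05 over the 22050 genes with a mean of at least 1. It had 2 residual and 4.06 prior degrees of freedom. edgeR 4.0.16 (quasi-likelihood, TMM scaling, filterByExpr) and DESeq2 1.42.0 were run on the recovered reads as alternatives, among 21 in all, and the scripts were tested on simulated data. Counting intervals are exact Poisson intervals at 95% and cover counting error only. The members and lists were chosen with earlier results of these data known. Named genes were all 9 markers, Elf4, Ly6c1, all genes of the growth factor and complement lists, and in other lists up to 4 called genes by smallest p, or up to 2 where none was called. Some genes that this rule names are not reported here. No set test was run, and list medians are descriptions.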

Additional observations from a re-analysis of the deposited data

How the results depend on the processing

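The 7 marker calls kept their direction in each of the 21 alternatives. Of the 9 markers, 0 were called lower in any setting, and 7 were called higher with a pseudocount of 0.5 or 5, a minimum mean of 10, library totals, edgeR, DESeq2 or the replicate block. The count was 6 with quantile scaling and in edgeR with no filter on low counts, 4 in limma with no filter on low values, 3 with median scaling and 0 without a variance trend (7 at an unadjusted p under 0.05). With 1 library left out it was 0 to 7, with 3 and 2 (edgeR) without wild type replicates 1 and 2 and 2 without Elf4fl/fl-Villin-Cre replicate 1. Over all genes, 0 were called without a variance trend (by unadjusted p under 0.05, 3326 higher and 2762 lower), 4069 higher and 1178 lower under library totals, and 0 to 1563 higher and 0 to 2191 lower with 1 library left out. For edgeR the counts were lowest without wild type replicate 2 (476 and 809), and 844 were higher without Elf4fl/fl-Villin-Cre replicate 1. Limma gave the 0 in all 4 such fits (by unadjusted p under 0.05, 1717 to 3412 higher and 2061 to 2859 lower), where 3 libraries leave 1 fewer residual degree of freedom. Same-numbered libraries share only a number in the labels. Their deviations from the group means correlated at 0.198 over 16881 genes, and the replicate block moved the edgeR count to 2456 higher and 2977 lower. In limma with the replicate block 2066 genes were higher and 2445 lower. With the block, limma and edgeR both also called Csf1, Csf2ra, Ccl7, C1ra, Serping1, Itgb2, Adgrl1 and Adgrg6 higher (Csf1 adjusted p = 0.0446 and 0.0338), and edgeR called H2-DMb1 lower. Over the named genes, 1255 values kept their side of the threshold, 417 lost it, 47 gained it and 16 turned sign, all 16 for genes that limma did not call. Ly6c2 turned to 0.18 under library totals, 0.12 under quantile scaling, 0.48 (limma) and 0.47 (edgeR) without wild type replicate 1, and 0.21 (limma) and 0.0395 (edgeR) lacking Elf4fl/fl-Villin-Cre replicate 1. Ly6c1 turned to 0.0606 under library totals and 0.22 under quantile scaling. Il34 turned to 0.29 under library totals, and in limma to 0.0067 without wild type replicate 1 and 0.0086 when Elf4fl/fl-Villin-Cre replicate 1 was left out. C2 turned to 0.29 under library totals, 0.41 (limma) and 0.37 (edgeR) without wild type replicate 1 and 0.0159 (limma) when Elf4fl/fl-Villin-Cre replicate 1 was left out, the fit in which edgeR put H2-Aa at -0.0218. The cause of these shifts was not tested. Depth limits the genes on few reads: the wild-type libraries held 4 and 2 reads of Csf2, 9 and 4 of Mmp8, and 1 and 0 of Ngp and of Ccr3. Among the 9 markers the lowest count was 91, for Cd163.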
